A study of Drosophila melanogaster with 2 samples.

Results

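The genes described here lie wholly inside another gene on the autosomal arms 2L, 3L and 3R of the Drosophila melanogaster genome. They were chosen by position and name alone: rows of the deposited gene table on those arms, known only by a CG number, at least 500 bp wide, with a start and an end inside the interval of another row. Of 4549 genes on these arms with such a symbol and width, 612 were nested, out of 15627 rows in all. The widest row that held a nested gene was taken as its host, which gave 419 hosts. Both libraries came from 0 to 2 h embryos of w1118, a laboratory stock with white eyes, and the groups were 1 library of chromatin immunoprecipitated with an antibody against dBigH1 and 1 library of input DNA without an antibody. Whole embryos were pooled, so fewer nuclei carrying dBigH1 and less dBigH1 per nucleus cannot be told apart. Genomic DNA carries no expression, so the stage could not be checked against marker genes.

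dBigH1 is the linker histone of the early fly embryo and the germ line, where it takes the place of somatic H1 and binds the DNA between nucleosomes. In the compact genome of the fly many genes lie within the introns of longer ones, and a gene read from the opposite strand needs its own promoter inside the host. A nested gene and its host lie on the same stretch of chromatin, so the pair sets the dBigH1 signal over a short gene beside that of the DNA around it. Genes known by CG numbers are predicted genes that had no other name in the annotation used.

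The values had been scaled to 8803832 reads for the ChIP and 6272887 for the input. Levels are in RPKM (reads scaled by the width of the gene and the total of the library) and cover the whole gene with its introns. Nested genes had between 17 and 2123 ChIP reads and between 14 and 1486 input reads, with medians of 82.5 and 57.5. Hosts had medians of 883 and 603 reads. The ratio used below is log2 of ChIP RPKM + 1 over input RPKM + 1. The added 1 understates the ratio where signal is low. Every interval of a single gene is a 95% interval for counting error alone. With 1 library per group no difference has a replicate check, and the values compare these libraries.

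Nested genes differed in how they sat in their hosts. There were 365 on the opposite strand of the host and 247 on the same strand. Of the latter, 81 had exactly the same start and end as the host, so both rows held the same reads and their difference is 0 by construction. In 59 of these 81, both rows of the pair were nested genes by the rule. The remaining 531 nested genes had a median width of 1390 bp, which was 5.20% of the host's width, inside hosts with a median width of 21897 bp. Because some rows coincide, the 612 nested genes cover 576 distinct intervals. Of the hosts, 202 had a name, 195 had a CG number and 22 had no symbol in the table.

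Nested genes and hosts both had slightly more dBigH1 ChIP over input than the table as a whole. Nested genes had a median ChIP level of 6.61 RPKM and a median input level of 6.34 RPKM, while over all rows these were 6.38 and 6.51. The median log2 ratio of the 612 nested genes was 0.06 (interval of the median 0.02 to 0.08), and that of the 419 hosts was 0.05 (0.02 to 0.06). All rows had a median of -0.04, with quartiles of -0.23 and 0.14. Genes of the same arms with a CG number and the same minimum width that lay in no other row had a median of -0.01 over 3937 genes, which was 0.07 below the nested genes. With 1 nested gene per host, the widest, that difference was 0.03 (-0.0046 to 0.07), an interval that includes 0. That set keeps coinciding genes, as only 342 of the 419 hosts held a nested gene with its own interval. Without coinciding genes, but with several genes in some hosts, the difference was 0.08 (0.06 to 0.10). Nested genes of the same arms that carried a name in place of a CG number had a median of -0.03 over 271 genes, 0.09 below those with CG numbers. The 81 genes that coincided with their host had a median of -0.09 (-0.15 to -0.04), below that of all rows, and the 531 others one of 0.07 (0.05 to 0.10). For 59 of the 81 the host row was itself a nested gene with the same reads. Such values are entered more than once, so the interval for the 81 is too narrow. The intervals over all nested genes and hosts also take in such rows.

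**Figure D1:**
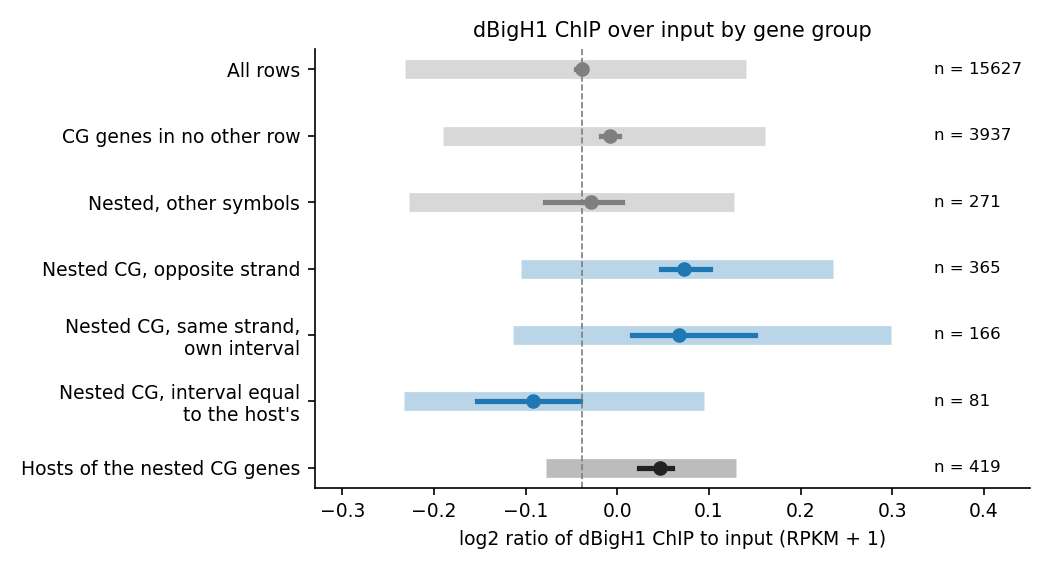
Log2 ratio of dBigH1 ChIP to input by gene group: points are medians, thin bars the 95% interval of the median over genes, pale bars the quartiles, and the dashed line the median of all rows (-0.04). Nested CG genes with their own interval lay at 0.07 on both strands, and those with the interval of their host at -0.09.

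Strong values were rare at either end. A log2 ratio of at least 0.5 was reached by 33 of the 612 nested genes (5.39%), against 4.53% of all rows and 3.63% of the CG-numbered genes in no other row, which is close to the background. At -0.5 or less there were 13 nested genes (2.12%), against 7.31% of all rows and 4.75% of the CG-numbered genes in no other row. Read by their own counting intervals, 70 nested genes (11.4%) lay above the median of all rows and 14 (2.29%) below it, where 10.6% and 9.59% of all rows did. The shift of nested genes was therefore more visible as few low genes than as many high ones. Of the hosts, 0 reached 0.5 and 2 reached -0.5. By their intervals, 169 hosts (40.3%) lay above the median of all rows and 22 (5.25%) below. Hosts are wide and deeply covered, so their intervals are narrow and such shares are not comparable with those of short genes.

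The lowest nested genes had more input than ChIP signal, as any negative ratio means. Of these 6 genes, 5 lay in hosts with a log2 ratio between -0.03 and 0.21. These and the highest genes are given among nested genes with at least 20 input reads. CG34137, now called dunk, lies at 2L 22151623 to 22152640 on dm3, on the same strand as its host CG42748. It had 44 ChIP and 60 input reads, or 4.91 and 9.40 RPKM, a log2 ratio of -0.81 (-1.32 to -0.31), while the host lay at -0.01. CG14564 lies at 3L 21750257 to 21751146, on the opposite strand of Syn1, which codes for a syntrophin-like protein. Its 19 ChIP and 28 input reads gave 2.42 and 5.02 RPKM and a ratio of -0.81 (-1.48 to -0.12), against 0.21 in Syn1. CG42762 in CG8552 had 8.20 and 13.9 RPKM and a ratio of -0.69 (-1.28 to -0.11). These 3 intervals excluded the median of all rows.

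The intervals of the other 3 low genes did not exclude that median. They were CG5079 in CG4673 (-0.60, from 17 ChIP and 20 input reads), CG34116 in CG15881 (-0.59) and CG31008 (-0.58) in 5-HT7, a serotonin receptor gene. CG15881 was itself low, at -0.39, so CG34116 differed from its host by only -0.20.

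The highest nested genes had an input level below the median of nested genes in all 6 cases, which a ranking by this ratio favours. CG13476, at 3L 14698564 to 14699257 in ome, had 55 ChIP and 22 input reads, which gave 9.0 and 5.05 RPKM and a log2 ratio of 0.72 (0.08 to 1.37). CG7409 in CG32373 followed at 0.71 (0.05 to 1.36), from 50 and 20 reads. CG17344 lies at 2L 19102044 to 19102909 on the opposite strand of Lim3, a LIM homeodomain gene of motor neurons, and had 9.84 and 5.71 RPKM, a ratio of 0.69 (0.15 to 1.25) against 0.02 for Lim3.

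CG12448 in beat-Ib, a member of the beaten path family of neuronal surface proteins, lay at 0.68 (0.24 to 1.13). CG32236 in axo, the gene of axotactin, lay at 0.68 as well, and CG33920 in CanA1, which codes for a catalytic subunit of calcineurin, at 0.67 (0.04 to 1.31). All 6 intervals lay above the median of all rows. The ranking used these very reads, so such intervals are no support for it. The most extreme value of all, 1.17 (0.52 to 1.82), belonged to CG42655 in the adenylyl cyclase gene Ac76E. It was the 1 nested gene at or above a log2 ratio of 1, rested on 65 ChIP and 18 input reads, and is named because of that value.

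**Figure D2:**
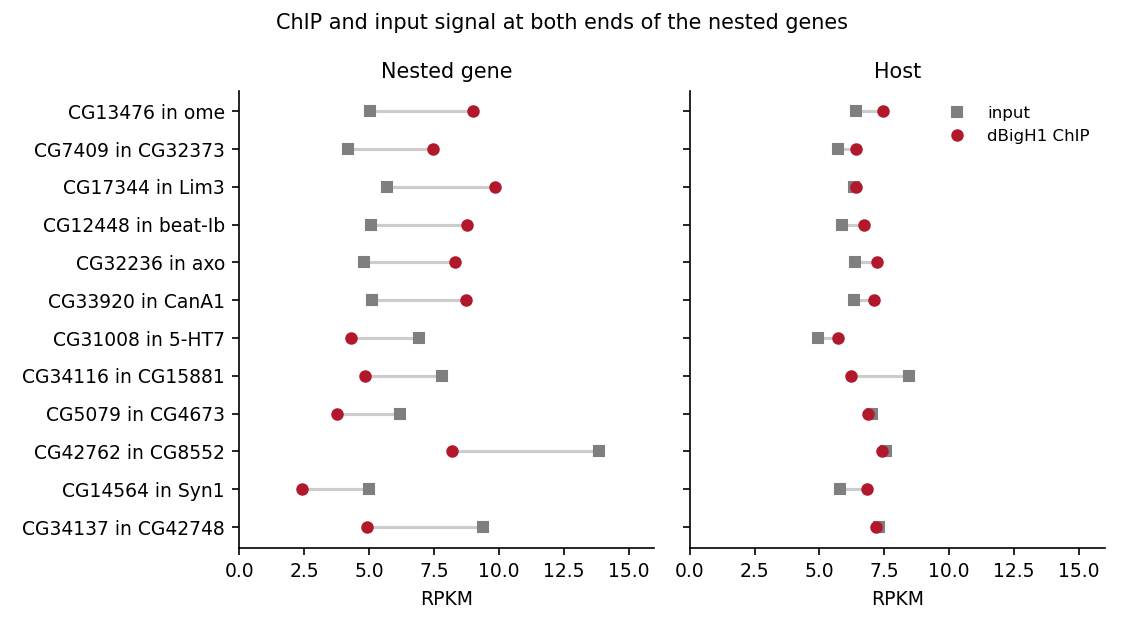
RPKM of input (squares) and dBigH1 ChIP (circles) in the 6 nested genes with the highest and the 6 with the lowest log2 ratio among those with at least 20 input reads, and in their hosts. ChIP levels of these nested genes ran from 2.42 to 9.84 RPKM.

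Within pairs, nested genes had about the same dBigH1 ratio as their hosts. Over all 612 pairs the median of nested minus host was 0.00, which the 81 coinciding pairs fix in part. Over the other 531 it was 0.01 (-0.01 to 0.03), with quartiles of -0.14 and 0.15, and 275 nested genes lay above their host. Set against the host's reads outside the nested gene, the median log2 difference was 0.01 (-0.02 to 0.04) over 529 pairs. In 22 pairs (4.16%) the interval of that difference lay above 0 and in 19 (3.59%) below. Among all 1509 nested rows of the table with the same minimum width, 4.44% lay above and 5.04% below, so the nested CG genes were near that background.

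The SD of this log2 difference was 0.33 over the 529 pairs, and counting alone would give 0.30. In the 177 pairs with the most reads in the nested gene (174 to 3609 over both libraries) the SD was 0.26 and that from counting 0.23. Most of the scatter between a nested gene and its host was thus of the size that read counting gives. Across pairs, the log2 ratio of the nested gene and that of the host's remaining reads had a Pearson r of 0.26 and a Spearman rho of 0.27 over 527 pairs. By reads in the nested gene, r was 0.19 in the 178 pairs with the fewest, 0.34 in the middle 173 and 0.29 in the 176 with the most. All pairs come from the same 2 libraries, and several share a host.

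The input level was a little lower in the nested gene than in the host, and the interval for the ChIP level included 0. The median difference in log2(RPKM + 1) over the 531 pairs was -0.02 (-0.05 to 0.01) in the ChIP and -0.04 (-0.07 to -0.02) in the input.

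**Figure D3:**
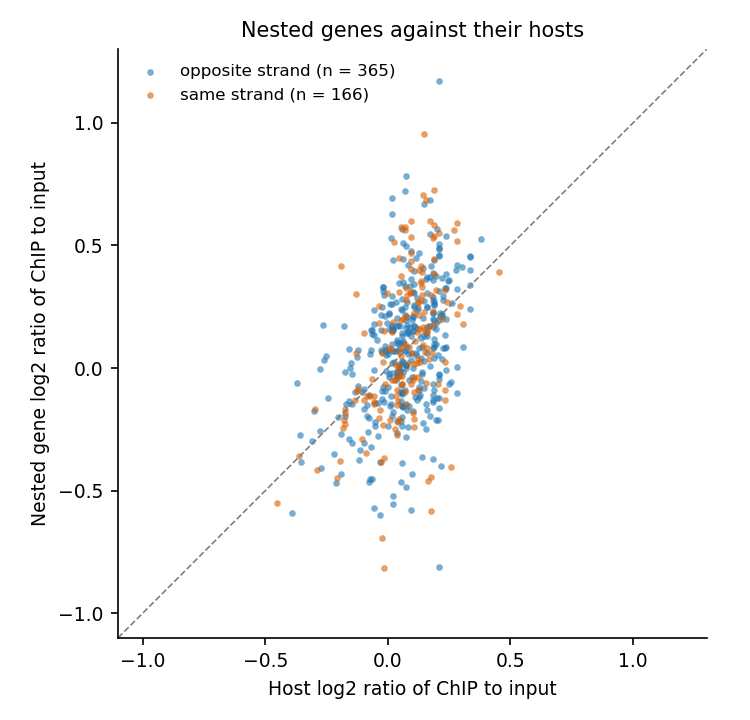
Log2 ratio of ChIP to input of each nested gene against that of its host, for the 531 pairs that do not coincide, coloured by strand; the dashed line marks equal values. Nested genes spread from -0.81 to 1.17, hosts over a narrower range, and both strands overlap throughout.

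A few well covered pairs stood apart from their hosts. Among pairs with at least 50 reads in each library, the most negative was CG10827, now called Alp5, in Calx, which codes for a sodium and calcium exchanger. CG10827 had a ChIP level of 3.79 and an input level of 5.32 RPKM, a ratio of -0.40, against 0.22 for Calx. Relative to the rest of Calx the log2 difference was -0.77 (-1.32 to -0.22). CG13607 in CG6129 lay 0.52 below its host on the same scale of ratios (-0.46 against 0.05). CG17906 lay at -0.39 in alien, the gene of a COP9 signalosome subunit, at 0.06, and CG7295 at -0.21 in CG31663, at 0.19. CG6621 lay at -0.46 in CG4674, at -0.08, from 174 ChIP and 180 input reads. All 5 were on the opposite strand of the host, and against the rest of the host all but CG7295 (-1.04 to 0.05) had an interval below 0.

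At the other end, CG34276 lies at 3R 11751351 to 11753300 on the same strand as CG4221 and had 133 ChIP and 68 input reads. Its ratio was 0.42, that of CG4221 was -0.19, and the log2 difference from the rest of the host was 0.83 (0.36 to 1.31). CG5078 lay at 0.58 in CG32425, at 0.06. CG14711 lay at 0.17 in CG6808, at -0.18. CG31860, now called ZnT33D, lay at 0.54 in CG31760, at 0.19, and CG32299 at 0.33 in CG42669, at -0.02. Of these 5, the intervals of CG34276, CG5078 and CG31860 against the rest of the host lay above 0, and those of CG14711 (-0.06 to 1.13) and CG32299 (-0.06 to 0.87) did not.

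Once coinciding rows were set aside, both strands had like medians, and more genes on the same strand were high. The median log2 ratio was 0.07 (0.05 to 0.10) in the 365 genes on the opposite strand and 0.07 (0.02 to 0.15) in the 166 on the same strand with their own interval. With the 81 coinciding genes included, the same strand median was 0.01 (-0.05 to 0.07). A log2 ratio of at least 0.5 was reached by 18 of the 166 (10.8%) and by 15 of the 365 on the opposite strand (4.11%), and one of -0.5 or less by 4 (2.41%) and 7 (1.92%). The median of nested minus host was 0.01 (-0.01 to 0.05) on the opposite strand and -0.00 (-0.04 to 0.03) on the same strand with their own interval. On the opposite strand the median ChIP level was 6.65 RPKM and the median input level 6.20 RPKM, against 6.63 and 6.36 RPKM on the same strand with their own interval. The log2 difference from the rest of the host was at least 0.5 in 17 of 164 pairs on the same strand (10.4%) and in 18 of 365 on the opposite strand (4.93%). By interval, 11 of the 164 (6.71%) lay above 0 and 7 (4.27%) below, against 11 (3.01%) and 12 (3.29%) of the 365, where 4.44% and 5.04% of all nested rows did. Whether the strands differ was not tested. Hosts of 50 kb or more held 57 of the 166 same strand genes but 150 of all 531, and 10.7% of those 150 reached 0.5. In such hosts the median log2 ratio was 0.23 on the same strand and 0.18 on the opposite strand. The order was reversed in hosts of 5 to 20 kb (-0.02 and 0.03) and of 20 to 50 kb (0.01 and 0.07). Under 5 kb, with 7 genes on the same strand, the medians were 0.06 and -0.14. The part of host width was not tested. The pair nearest the median on the opposite strand was CG14526, the neprilysin-like gene Nepl21, at 0.17 in CG33203, at 0.16. On the same strand it was CG14906, now called Mettl4, which coincides with CG14907 (both -0.16).

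The width of the host went with the ratio of both partners. These width classes were chosen after the values were seen, and coinciding pairs are left out. In hosts under 5 kb, the median log2 ratio of the 38 nested genes was -0.13 (-0.26 to 0.02). In hosts of 5 to 20 kb the 162 nested genes had 0.02 (-0.02 to 0.07), and in those of 20 to 50 kb the 181 had 0.06 (0.00 to 0.09). In the 75 hosts of 50 kb or more, the median over 150 nested genes was 0.20 (0.16 to 0.25). The all-row median was exceeded by 123 of them. Host medians ran in the same order, -0.11, 0.04, 0.07 and 0.12.

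The nested genes themselves had median widths of 1064, 1587, 1307 and 1365 bp along these classes. They were narrowest in hosts under 5 kb, and the part of their own width was not tested. Their median ChIP signal was 6.33, 6.58, 6.62 and 7.01 RPKM and their median input signal 7.10, 6.43, 6.22 and 6.02 RPKM. Input signal thus moved with the ratio, and its part in the result was not tested. In hosts of 50 kb or more the nested gene lay above the host in 94 of 150 pairs, with a median difference of 0.08 (0.04 to 0.12). In the other classes the medians were -0.03, -0.01 and -0.01, with intervals that included 0. By interval against the rest of the host, 5 of the 150 pairs lay above 0 and 3 below, where 4.44% and 5.04% of all 1509 nested rows did. Neither count was above that background.

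**Figure D4:**
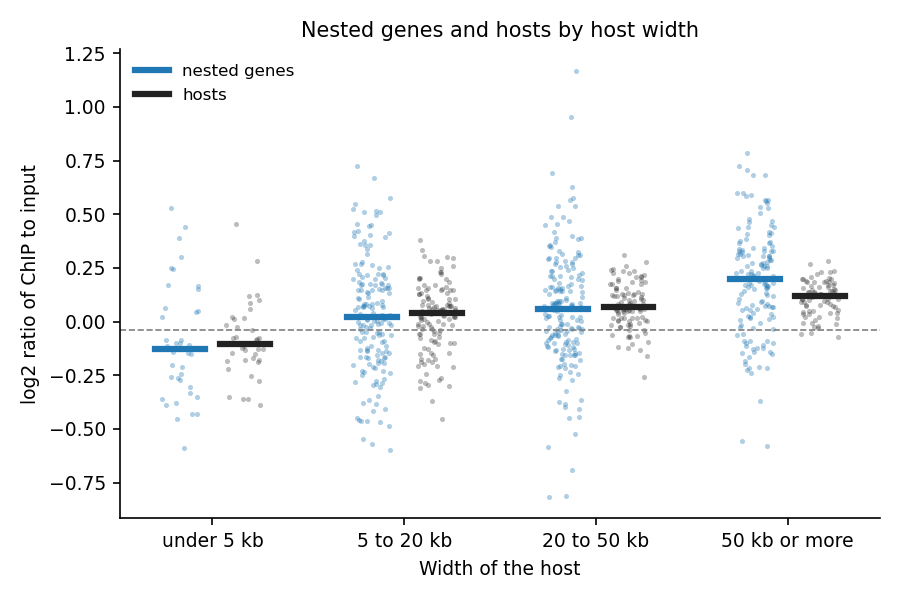
Log2 ratio of ChIP to input of nested genes (blue points) and hosts (black points) by host width, without coinciding pairs; bars are medians and the dashed line is the median of all rows. Medians of nested genes went from -0.13 in hosts under 5 kb to 0.20 in hosts of 50 kb or more.

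Long rows lay above the median of all rows with and without a gene inside. Among rows of at least 10 kb on these arms, a limit chosen after the data were seen, the 247 hosts had a median of 0.08 (0.06 to 0.10) and the 676 rows with no row inside one of 0.04 (0.03 to 0.06). These hosts were also wider, with a median width of 34180 bp against 17426.5 bp. The part of width in this difference was not tested. The widest host, pum, codes for the maternal translational repressor Pumilio and spans 171340 bp at 3R 4892065 to 5063404. It had 11465 ChIP and 7740 input reads and a ratio of 0.07 (0.03 to 0.11), and its nested gene CG11997 lay at 0.34 (-0.07 to 0.75). The widest nested gene, CG13800, takes 33.5% of CG42669 and lay at 0.02 (-0.06 to 0.11), against -0.02 (-0.07 to 0.03) for that host.

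The lowest hosts with at least 50 reads in each library were rows that share their interval with the nested gene. CG31542 and CG34277, each the host of the other, had 75 ChIP and 84 input reads, 3.86 and 6.07 RPKM, and a ratio of -0.54 (-0.92 to -0.15). The mitochondrial transcription factor gene mtTFB1 shares its interval with CG42630, now called Ccdc56, and lay at -0.49 (-0.93 to -0.04). CG42630 is in turn the 1 nested gene of mtTFB1. The highest hosts with at least 50 reads in each library were CG13659 at 0.38 (0.16 to 0.60), which holds CG31288 at 0.52, the molybdopterin synthase gene Mocs2 at 0.34 (-0.05 to 0.74), which coincides with CG42503, and CG4174 at 0.34 (0.22 to 0.45). CG18234 in CG4174 lay at 0.40 (0.07 to 0.74).

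Among hosts with a known role, those of neuronal adhesion and axon guidance were the most frequent of the 5 classes listed. Of 79 such genes in the table, 19 were hosts. Their median was 0.16 (0.10 to 0.19), 18 lay above the median of all rows, 17 of them by their intervals, and 0 had an interval below. Of these 19 hosts, 14 were 50 kb or wider, and of all 75 hosts of that width 72 lay above the median of all rows, 64 (85.3%) by interval, so the count is near that of wide hosts. They ran from the teneurin gene Ten-m (-0.05) to dpr11 (0.28), a gene of the immunoglobulin family of synaptic surface proteins. The 32 nested genes they held had a median of 0.17, close to that of the hosts. By interval, 6 lay above the median of all rows and 0 below. Of all rows 10.6% and 9.59% did so. Of nested genes with their own interval in hosts of 50 kb or more, 15.3% lay above and 0 below.

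The 7 channel and neurotransmitter receptor genes had a median of 0.12 and all lay above the median of all rows, from the neuropeptide receptor gene SIFR (0.05) to 5-HT7 (0.18). Their 10 nested genes had a median of -0.10 and only 3 lay above their host, but by interval 0 of the 10 lay below the median of all rows and 1 above. The 8 signalling hosts had a median of 0.14, from Wnt4 (-0.07), which codes for a secreted ligand, to Pde1c (0.24), which codes for a phosphodiesterase. Their 14 nested genes had the same median, 0.14. The 8 hosts listed with the transcription factors, among them the chromatin remodelling gene brm, had a median of 0.03. They ran from the ecdysone-induced gene Eip75B (-0.03) to the circadian gene Clk (0.30), and their 13 nested genes had a median of 0.18. The 6 hosts listed under cytoskeleton and muscle, among them the laminin gene wb, had a median of 0.06. They ran from the kinesin gene Klp67A (-0.15) to the dystrophin gene Dys (0.20), and their 7 nested genes had a median of 0.02. The hosts named at the ends of the 5 classes were chosen after their values were seen. In these classes 0 hosts were at or past 0.5 in either direction.

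Hosts that held several nested genes showed a wide range of values within a single locus, with a spread near the size that counting gives. Without coinciding pairs, 254 hosts held 1 nested gene and 88 held 2 or more, 277 genes together. Within these 88 hosts the SD of the log2 ratio among nested genes was 0.25, against 0.28 over all 277 genes and 0.10 among the host values. Counting alone gave an SD of 0.30 for nested genes against the rest of the host over 529 pairs, on a scale without the added 1. Host values rest on far more reads. The median was 1350.5 ChIP reads in the 342 hosts of genes that do not coincide, and 77 in those 531 genes. In B4, at 2L 13500624 to 13549328, 9 nested genes lay between -0.05 (CG9263, on the same strand) and 0.63 (CG33643, from 44 ChIP and 19 input reads). B4 itself lay at 0.02 (-0.05 to 0.09), 8 of the 9 lay above it, and 0 had an interval off the median of all rows. In CG11455, 9 nested genes lay between -0.16 (CG31975) and 0.57 (CG13694, interval 0.09 to 1.05), against 0.06 for the host. CG31975 shares its interval with another nested gene of this host, CG31976, now called ovm.

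All 8 nested genes of ome lay above the median of all rows, from CG4914 (0.04) to CG13476, but only 2 by interval. Of all 612 nested genes, 382 lay above that median. The host had 4919 ChIP and 3020 input reads and lay at 0.19 (0.13 to 0.24). NepYr, a neuropeptide receptor gene on 3R, lay at 0.21 (0.14 to 0.28), and its 8 nested genes ran from CG6295 (-0.16) to CG31077 (0.55, interval 0.27 to 0.84). CG31077 had 254 ChIP and 117 input reads, and its log2 difference from the rest of NepYr was 0.41 (0.08 to 0.75). In Sytbeta, which codes for a synaptotagmin, 7 nested genes ran from CG12310 (-0.06) to CG18581 (0.60, interval 0.04 to 1.17), and 6 of them lay above the host (0.09). CG12310 and CG18581 lie side by side on the same strand. The former had 28 ChIP and 21 input reads and the latter 71 and 32.

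**Figure D5:**
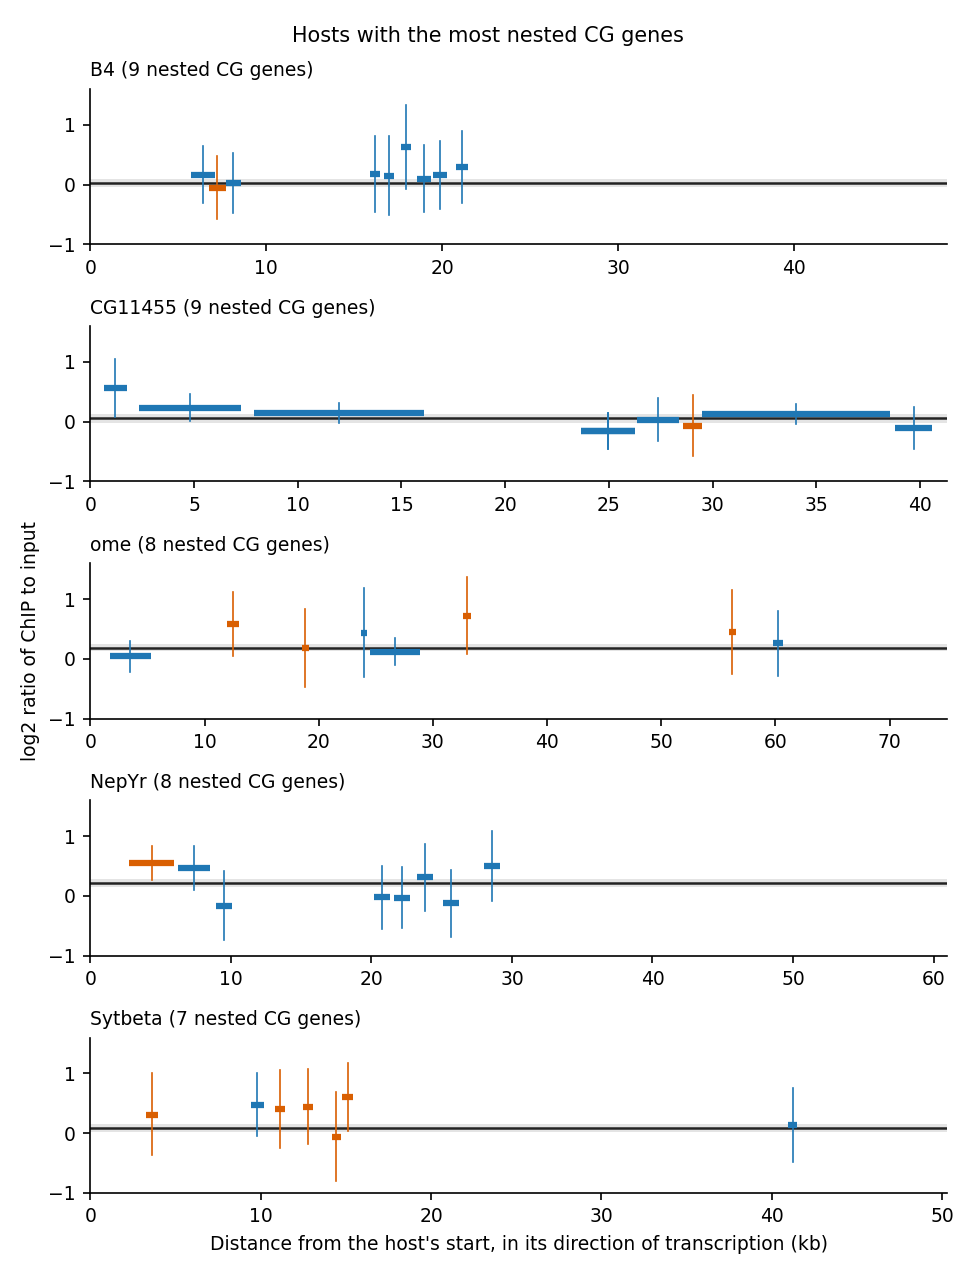
Log2 ratio of ChIP to input along the 5 hosts with the most nested CG genes, by distance from the host's start in kb; thick bars are nested genes to scale (blue on the opposite strand, orange on the same strand), thin lines their 95% counting intervals, and the black line with its grey band the host. Most intervals of the short nested genes take in the host's value.

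A nested gene's place along its host went with no clear difference. With the host split into 3 equal stretches in its direction of transcription, and from its start, the median of nested minus host was -0.00 (-0.05 to 0.05) over 176 pairs, 0.01 (-0.03 to 0.05) over 235 and 0.01 (-0.05 to 0.05) over 120. Of the 600 nested genes with a match in a newer table, 105 now have another name. The largest such family, picked after the names were seen, was that of the neprilysin-like peptidase genes (Nepl), with 12 members in 5 hosts. Their median was 0.08, from -0.27 to 0.31. In 10 the ratio was above the median of all rows, in 1 by its interval. The highest was CG15485 (Nepl7), on the opposite strand of the POU domain gene pdm2. At the width limit, the members just inside were CG42591 (508 bp, -0.03) and CG31704 (514 bp, 0.38), and the nested genes just outside were CG42751 (496 bp, 0.89) and CG14610 (498 bp, 0.12).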

How the data were processed

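Genes were counted and scaled by the submitters. The authors' table holds, per the file headers, log2 RPKM of each gene in both libraries and a score headed as a MAnorm log2 fold change. Tools listed in the submitters' processing notes are Bowtie2, CASAVA 1.9, R 2.15 and FastQC 0.10, and the build listed there is dm3. The counting tool, the annotation and the handling of overlapping genes are points not given in the sources used here.

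Reads per gene were recovered from the deposited log2 values by undoing log2(RPKM + 1). All came out whole within a tolerance of 1e-05 reads. In 0 of the 612 pairs did a host have fewer reads than its nested gene in either library. Most nested genes are far narrower than their hosts, so this says little about how overlapping genes were counted. That the reads of a nested gene are part of its host's was therefore assumed. The log2 ratio is the ChIP column minus the input column. The 95% interval of a gene comes from the exact Clopper-Pearson bounds on the share of ChIP among its reads, put on this scale. A pair's interval is the exact conditional interval of the odds ratio of nested reads against host reads outside that gene. Both cover counting error only. PCR copies of a read are no independent molecules. Intervals of medians come from the ordered values and describe the spread of genes.

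With 1 library per group no test was possible, and no p-value is given. The members and lists were chosen with earlier results of these data known. The genes named are the 6 lowest and 6 highest members with at least 20 input reads, the 5 pairs at each end of the nested minus host difference with at least 50 reads in each library, the 5 hosts with the most members, the pairs nearest the median, the 3 lowest and 3 highest hosts with at least 50 reads in each library, the widest host and member, and the genes next to the width limit; others are said to have been chosen after their values were seen. Equally wide containing rows (13 members) had identical coordinates, and the first identifier was taken. Current symbols came from a RefSeq table of Release 6 through Entrez numbers (600 of 612 members matched). Only names were taken from it.

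Alternatives were a pseudocount of 0, 0.1 or 5 RPKM, a lowess correction (span 0.3), the deposited score, centring, filters on input, a width of at least 1000 bp, 1 member per host, a stricter containment, the narrowest host, host reads outside its nested rows, and other folds. The work used scipy 1.17.1, numpy 2.4.6, statsmodels 0.14.6, pandas 2.3.3 and matplotlib 3.10.9 in Python 3.11.15, and the procedure was tested on simulated data.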

Additional observations from a re-analysis of the deposited data

How the results depend on the processing

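No paired analysis was possible because each group had 1 library. The nested median of 0.06, that of hosts (0.05) and the difference from CG-numbered genes in no other row (0.07) kept their sign in all alternatives run. With 1 member per host the nested median was 0.024 (-0.0076 to 0.063) and with 5 RPKM added 0.038. After the lowess correction the first 2 were 0.096 and 0.071, on the deposited score 0.31 and 0.24, and centred on all rows 0.099 and 0.085. The difference from genes in no other row was 0.22 on the score and 0.032 (-0.0046 to 0.068) with 1 member per host. Same minus opposite strand, for nested minus host over all 612 pairs, was -0.01 as reported and -0.060 (-0.155 to 0.035) on the score. After lowess it was -0.034 (-0.063 to -0.0046), an interval that excludes 0. All 81 coinciding pairs are on the same strand and fixed at 0, so that interval cannot by itself show a strand difference. Without coinciding pairs, and without lowess, the value was -0.014 (-0.061 to 0.033). Nested minus host was 0.00 as reported, 0.0104 under stricter containment, 0.0144 against host reads outside nested rows and 0.0053 without coinciding members, an alternative chosen after the data were seen. Counts of nested genes at or past 0.5 (33 above, 13 below) were 110 and 58 at a fold of 0.3, 1 and 0 at 1, 52 and 27 with no pseudocount, 50 and 27 with 0.1 RPKM and 3 and 2 with 5 RPKM. Counts of hosts (0 and 2) were 11 and 24 at 0.3, 0 and 0 at 1, 2 and 7 with a pseudocount of 0 or of 0.1 RPKM, 0 and 0 with 5 RPKM, 1 and 0 after lowess, and 0 and 0 under stricter containment. A change of pseudocount or fold moves such counts by construction; for the other changes the cause was not tested. Depth limits single nested genes, whose intervals are mostly wider than the differences between groups.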

Other observations

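The 3 arms gave like values. Nested genes had medians of 0.04 on 2L (191 genes), 0.07 on 3L (221 genes) and 0.05 on 3R (200 genes), and hosts 0.07, 0.04 and 0.04. CG-numbered genes in no other row lay at 0.00, -0.01 and -0.01 on the same arms. Within each class of nested gene width the median of nested genes was also above that of genes in no other row. The medians were 0.07 against 0.02 from 500 bp, 0.06 against -0.05 from 1000 bp, 0.02 against -0.04 from 2000 bp and 0.10 against 0.04 in the widest class. Only from 1000 bp were the intervals of the medians apart (0.01 to 0.09 against -0.07 to -0.03), and they overlapped in the other classes. The 41 nested genes that lay in 2 or more other rows lay at a median of 0.17 (0.07 to 0.23). The all-row median was exceeded by 35 of them, and by 382 of all 612 nested genes. Rows that share an interval were not set aside here, so some values may be entered more than once and the interval may be too narrow. The 3 Vajk genes, chosen after their names were seen and all on the opposite strand of Ance-3, lay at -0.17 (CG16886), 0.00 (CG16885) and 0.21 (CG16884).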
